A study of Mus musculus with 45 samples.

Results

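The comparison set ethanol-exposed mice killed 8 h after the last vapor session (CIE 8 h, 5 arrays) against ethanol-exposed mice killed as the session ended (CIE 0 h, 6 arrays), 11 of the 45 arrays of the series, chosen by the treatment and time in their labels. All mice were adult male C57BL/6J, and each array held nucleus accumbens (NAC) RNA from 1 mouse. CIE, chronic intermittent ethanol, meant 4 cycles of 4 days with 16 h per day in a vapor chamber at 10 to 13 mg ethanol per l of air, with 7 days without ethanol between cycles. Injections of ethanol at 1.6 g/kg, with 1 mmol/kg of the alcohol dehydrogenase inhibitor pyrazole, preceded the vapor of each cycle. Air mice (Ctrl) were given saline with the same pyrazole and air in the chambers, and Ctrl 8 h (5 arrays) and Ctrl 0 h (6 arrays) served as a reference for the same hours. The 0 h and 8 h mice differed in ethanol clearance, in hour of day and in time out of the chamber, which cannot be told apart within CIE mice, and the clock hours are not given in the sources used here.

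When vapor exposure ends, ethanol leaves the body over hours and an early withdrawal state begins. The NAC, the ventral part of the striatum, receives dopamine from the midbrain and is built mainly of inhibitory medium spiny neurons. Ethanol in mice is known to dampen neuronal firing, to lower body temperature and to raise stress hormones, and gene programs that follow firing, temperature, stress and the circadian clock turn over within hours.

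Values are log2 expression per probeset, a set of probes for 1 transcript, and a change is the CIE 8 h mean minus the CIE 0 h mean (or the Ctrl 8 h mean minus the Ctrl 0 h mean) on that scale, with a standard error (SE) from limma. A probeset passed at a Benjamini-Hochberg adjusted p of 0.01 or less over 45037 probesets, and "rose" and "fell" are used only for those. Each gene was read at its brightest probeset. Array medians lay between 6.94 and 6.96. Markers of medium spiny neurons averaged 11.11 to 11.52 in the CIE 8 h arrays and 10.89 to 11.54 in the CIE 0 h arrays, and those of cortical pyramidal neurons, which the dissection could include, 8.67 to 9.51 and 8.44 to 10.01. In a principal component analysis of the 11 arrays the first component (38.5% of the variance) did not separate the times, and CIE 8 h replicate 15 and CIE 0 h replicates 67 and 72 lay at its low end.

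Between 0 h and 8 h, 285 of 45037 probesets (0.633%) passed in CIE mice, 169 higher at 8 h (0.375%) and 116 lower (0.258%). By symbol, 125 genes had a probeset that rose and 98 had a probeset that fell, 0 had both, and 33 of the probesets did not map to 1 symbol. The changes had a median size of 0.37, and 3 exceeded 1. At an adjusted p of 0.05 or less the count was 782 (1.74%). At the brightest probeset, 140 of 18193 genes passed (0.77%), 68 that rose (0.374%) and 72 that fell (0.396%). At an unadjusted p under 0.05 by limma, 8.24% of these genes were higher and 7.15% lower, the background for the list counts below. All 285 probesets kept their sign with the hybridization sets, groups of arrays recognised by shared values, as a block, and 165 of them passed there. The signs come from the same arrays and are no separate test. When only the 11 arrays compared were fitted, 0 probesets passed by limma, with 56 at an adjusted p of 0.05 or less and 5002 at an unadjusted p under 0.05, so the calls rest on the spread shared with the other 6 groups.

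In Ctrl mice 0 of 45037 probesets (0.0%) passed by limma between the same times, 1 (0.00222%) had an adjusted p of 0.05 or less, and 2264 (5.03%) had an unadjusted p under 0.05, against 5707 (12.7%) in CIE. The probesets that rose in CIE had a median change of 0.39 in CIE and 0.10 in Ctrl, and the Ctrl change was positive for 143 of 169 (84.6%), beside 54.3% of all probesets. Those that fell had medians of -0.35 in CIE and -0.0652 in Ctrl, and the Ctrl change was negative for 84 of 116 (72.4%). In Ctrl, 48 of the 169 were also higher at an unadjusted p under 0.05 (3.12% of all probesets) and 29 of the 116 lower (1.91%). The difference between the 2 time changes passed for 0 probesets by limma (0.0%), with 7 (0.0155%) at an adjusted p of 0.05 or less and 2482 (5.51%) at an unadjusted p under 0.05. The 2 time changes share no arrays.

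**Figure D1:**
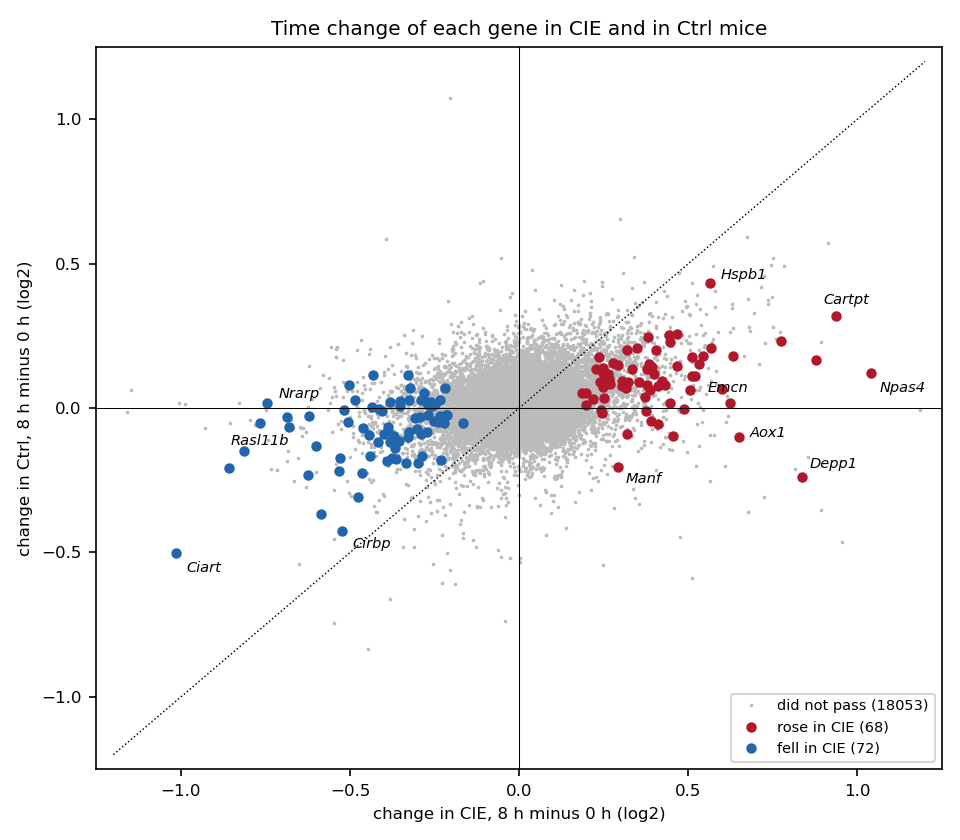
Change from 0 h to 8 h on the log2 scale in CIE mice (x axis) and in Ctrl mice (y axis) for 18193 genes at their brightest probeset; the 68 genes that rose in CIE are red, the 72 that fell are blue and the rest grey, and the dotted line marks equal change. The coloured genes were chosen on their x value, which by itself favours a wider spread along the x axis than along the y axis. Ciart, Cirbp and Hspb1 are among those with a sizeable Ctrl change of the same sign.

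The largest fall among genes at their brightest probeset was in the circadian clock. Ciart (chromosome 3, 95878500 to 95882257 in GRCm38.p6) encodes a repressor of the activator pair made by Clock and Arntl (BMAL1). Its log2 value was 8.51, 7.96, 8.14, 8.18 and 8.81 in the CIE 8 h arrays, against a lowest of 8.94, a median of 9.37 and a highest of 9.68 in CIE 0 h. The groups did not overlap, and CIE 8 h replicate 51 was the highest of its group. Ciart fell by 1.02 (SE 0.12, adjusted p = 2.89e-06), 0.495-fold, and changed by -0.50 in Ctrl (adjusted p = 0.264). The difference between the 2 time changes was -0.51 (SE 0.17, adjusted p = 0.562). Dbp, a transcription factor that is a direct clock output, lay between 11.7 and 12.07 in CIE 8 h (median 11.83), against 12.17, 12.32 and 12.48 (lowest, median, highest) in CIE 0 h, with no overlap. It fell by 0.44 (SE 0.0809, adjusted p = 0.00135), with -0.17 in Ctrl. Nr1d1, which encodes the repressor REV-ERB alpha, fell by 0.46 (SE 0.099, adjusted p = 0.00658, or 0.0184 in the set-blocked fit), with -0.23 in Ctrl, and its groups overlapped through CIE 8 h replicate 51 (7.87) and CIE 0 h replicate 17 (7.76).

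Of 15 measured clock repressors and outputs, 0 rose, 3 fell and 12 did not pass, and at an unadjusted p under 0.05, 1 was higher and 6 were lower, beside 8.24% and 7.15% of all genes. The list's median change was -0.14 in CIE and -0.0501 in Ctrl, beside 0.00204 and 0.0171 over all genes. Usp2, a deubiquitinase with a strong daily rhythm, changed by -0.29 (adjusted p = 0.0156) at its brightest probeset, while another probeset fell by 0.32 (adjusted p = 0.00739, or 0.0131 in the set-blocked fit). Nr1d2 changed by -0.17 (adjusted p = 0.0441). The period genes did not pass at their brightest probeset. Per1 changed by -0.11 (adjusted p = 0.656), Per2 by 0.0885 and Per3 by -0.17, although another probeset of Per3 passed in the same direction. On the activating side, Arntl changed by 0.30 (SE 0.0715, adjusted p = 0.0167) without passing, with 9.4, 9.2, 9.18, 9.23 and 9.49 in CIE 8 h against 8.86 to 9.08 in CIE 0 h. Cry1, a member of the list of repressors and outputs, changed by 0.31 (adjusted p = 0.0534), opposite in sign to that list's median. Without the 3 arrays at the low end of the first component, 3 of the 15 passed as lower. Ciart and Dbp were among them, but Nr1d1 was not (adjusted p = 0.0263 by limma).

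Promoter windows of RefSeq genes (GRCm38.p6, 250 bases before to 50 after the start) were searched on both strands for the E-box CACGTG, which the CLOCK and BMAL1 pair binds, and for the D-box TTATGTAA, bound by DBP. Of 13 clock repressors and outputs with a window, 5 held CACGTG (Bhlhe41, Ciart, Cry1, Per1 and Tef), against 7.15% of 32851 windows, and 1 (Per3) held TTATGTAA, against 0.938%. Ciart held 3 matches to CACGTG, while the windows of Dbp and Nr1d1 held none of either motif. The windows of the largest fall and of the clock output Dbp are shown with matches in capitals, Ciart at chr3:95882179-95882478 on the minus strand and Dbp at chr7:45704997-45705296 on the plus strand.
Ciart: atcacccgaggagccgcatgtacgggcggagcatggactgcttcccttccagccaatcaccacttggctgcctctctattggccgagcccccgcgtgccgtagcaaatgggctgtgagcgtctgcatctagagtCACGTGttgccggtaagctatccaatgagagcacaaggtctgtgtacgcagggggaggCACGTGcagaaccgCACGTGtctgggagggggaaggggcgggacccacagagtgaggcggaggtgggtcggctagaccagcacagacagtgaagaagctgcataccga
Dbp: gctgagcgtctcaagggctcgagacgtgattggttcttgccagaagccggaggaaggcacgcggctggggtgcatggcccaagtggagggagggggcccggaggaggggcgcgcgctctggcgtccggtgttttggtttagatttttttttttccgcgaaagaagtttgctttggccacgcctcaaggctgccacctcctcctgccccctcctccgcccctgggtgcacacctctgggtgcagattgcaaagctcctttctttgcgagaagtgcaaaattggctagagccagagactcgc

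Cirbp fell and Hspb1 rose in CIE, and both had Ctrl changes of the same sign. Cirbp, the cold-inducible RNA-binding protein, had 10.38, 10.68, 10.18, 10.41 and 10.75 in CIE 8 h, against 10.81, 11.03 and 11.15 (lowest, median, highest) in CIE 0 h, and the groups did not overlap. It fell by 0.52 (SE 0.0907, adjusted p = 0.000627), 0.696-fold, and changed by -0.43 (SE 0.0907, adjusted p = 0.129) in Ctrl, a difference of -0.0983 (SE 0.128, adjusted p = 1.0). The other 2 measured temperature-responsive RNA-binding genes did not pass, and their CIE changes were positive, up to 0.0875. Hspb1 (chromosome 5, 135887919 to 135889563), the small heat shock protein HSP27, had 9.7, 9.56, 9.64, 9.7 and 9.35 in CIE 8 h, against 8.83, 9.05 and 9.21 in CIE 0 h. Every CIE 8 h array lay above every CIE 0 h array. Hspb1 rose by 0.56 (SE 0.0826, adjusted p = 5.37e-05), 1.48-fold, and changed by 0.43 (adjusted p = 0.0537) in Ctrl. Its Ctrl arrays spanned 9.66 to 10.06 at 8 h and 9.27 to 9.62 at 0 h, so that it was also higher at 8 h there without overlap.

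Of 19 measured heat shock and cytosolic chaperone genes, 4 rose, 0 fell and 15 did not pass, and 11 were higher at an unadjusted p under 0.05 with 0 lower. Beside Hspb1 these were Hsph1 (0.28, SE 0.0439, adjusted p = 0.000191) and Hspa4l (0.32, SE 0.0547, adjusted p = 0.000597), which encode HSP110-type chaperones, and Hspa8 (0.25, SE 0.0449, adjusted p = 0.00122), the constitutive HSC70. All 4 had CIE 8 h arrays above the CIE 0 h arrays and passed in each fit with 1 array left out. The list's median change was 0.15 in CIE and 0.15 in Ctrl, where 10 members were higher at an unadjusted p under 0.05 (3.19% of all genes). The strongly stress-induced HSP70 gene Hspa1b did not follow them, with a change of -0.20 (SE 0.45, adjusted p = 0.912) in CIE and 1.07 (SE 0.45) in Ctrl. With the 3 arrays at the low end of the first component left out, 5 of the 19 passed.

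The windows of the same promoter table were searched for GAANNTTC, the pair of inverted units bound by heat shock factor 1. It was found in 9 of 16 chaperone windows, against 7.86% of 32851, and Hspb1 held 2 matches, Hsph1 1 and Hspa4l 0. The windows of the 2 that rose and held a match are shown with matches in capitals, Hspb1 at chr5:135887669-135887968 on the plus strand and Hsph1, the first of 2 starts, at chr5:149636287-149636586 on the minus strand.
Hspb1: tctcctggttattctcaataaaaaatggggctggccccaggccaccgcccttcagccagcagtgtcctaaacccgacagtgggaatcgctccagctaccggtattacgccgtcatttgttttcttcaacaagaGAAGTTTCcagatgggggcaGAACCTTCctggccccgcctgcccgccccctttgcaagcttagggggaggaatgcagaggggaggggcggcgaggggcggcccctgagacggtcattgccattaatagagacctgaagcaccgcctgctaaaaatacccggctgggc
Hsph1: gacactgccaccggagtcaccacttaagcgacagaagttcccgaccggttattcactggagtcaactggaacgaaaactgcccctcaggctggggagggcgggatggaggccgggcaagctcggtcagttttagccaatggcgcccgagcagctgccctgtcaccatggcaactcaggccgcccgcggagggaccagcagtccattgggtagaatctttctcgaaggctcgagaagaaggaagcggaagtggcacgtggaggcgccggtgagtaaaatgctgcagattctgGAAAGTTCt

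Genes induced by neuronal firing had mostly positive changes in CIE. Npas4 (chromosome 19, 4984353 to 5003439), a transcription factor that responds selectively to calcium influx in neurons, had 9.13, 7.97, 8.11, 8.41 and 8.06 in CIE 8 h, against 6.79, 7.12 and 8.13 (lowest, median, highest) in CIE 0 h. The overlap came from CIE 0 h replicate 72, whose 8.13 lay above 3 of the 8 h arrays. Npas4 averaged 8.33 in CIE 8 h and 7.29 in CIE 0 h, beside 8.44 in Ctrl 8 h and 8.32 in Ctrl 0 h. It rose by 1.04 (SE 0.226, adjusted p = 0.00759), 2.06-fold, with 0.12 in Ctrl. The set-blocked fit lost this call (adjusted p = 0.0184), and it held in 4 of the 11 fits that each left out 1 array. Vgf, a secreted neuropeptide precursor, had 11.72, 11.74, 11.49, 11.58 and 11.59 in CIE 8 h, against 11.15, 11.21 and 11.38 in CIE 0 h, with no overlap. It rose by 0.37 (SE 0.0584, adjusted p = 0.000164), with 0.0391 in Ctrl, and passed in each fit with 1 array left out. Vgf averaged 11.62 in CIE 8 h and 11.25 in CIE 0 h, beside 11.49 in Ctrl 8 h and 11.45 in Ctrl 0 h.

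Of 19 measured immediate early transcription factors, 1 rose, 0 fell and 18 did not pass, with 6 higher and 1 lower at an unadjusted p under 0.05 and a median change of 0.099 in CIE and -0.0835 in Ctrl. Fos, the classical marker of recent firing, had 9.41, 9.06, 9.41, 9.53 and 8.76 in CIE 8 h, against 8.16, 8.65 and 9.36 in CIE 0 h. Its Ctrl arrays spanned 8.67 to 9.86 at 8 h and 9.65 to 9.88 at 0 h, the latter above every CIE 0 h array. Fos changed by 0.51 (SE 0.22, adjusted p = 0.295) in CIE and by -0.59 in Ctrl, a difference of 1.10 with an adjusted p of 0.374. Nr4a1 changed by 0.47 (adjusted p = 0.0946) in CIE and -0.45 in Ctrl, Egr1 by 0.30 (adjusted p = 0.0244) and -0.13, and Klf4 the other way, by -0.54 (adjusted p = 0.0219) and 0.21. Of 28 activity-induced effectors, 1 rose (Vgf), 0 fell and 27 did not pass, with 11 higher and 1 lower at an unadjusted p under 0.05 and medians of 0.11 in CIE and -0.0419 in Ctrl. Arc, an effector of synaptic plasticity, changed by 0.72 (SE 0.186, adjusted p = 0.0292) in CIE and -0.31 in Ctrl. Without the 3 arrays at the low end of the first component 3 of the 28 passed, and 2 of the 19 transcription factors passed as higher and 1 as lower.

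Homer1, a postsynaptic scaffold gene, differed between its probesets and was singled out after its values were seen. A probeset other than the brightest read 10.58, 10.52, 10.76, 10.7 and 10.15 in CIE 8 h, against 9.19 to 10.0 in CIE 0 h, with no overlap, and rose by 0.98 (SE 0.148, adjusted p = 9.55e-05), with 0.26 in Ctrl. The brightest probeset of Homer1 changed by 0.0951 (adjusted p = 0.585). The transcripts that these probesets read were not looked up here. Cartpt, the precursor of the striatal peptide CART, had 11.46, 11.19, 10.85, 10.67 and 11.35 in CIE 8 h, against 9.76, 10.06 and 10.97 in CIE 0 h. CIE 0 h replicate 67 lay within the 8 h range and the other 5 below it. Cartpt rose by 0.94 (SE 0.206, adjusted p = 0.00859, or 0.0204 in the set-blocked fit), 1.91-fold, with 0.32 in Ctrl, as the 1 of 31 neuropeptides and their receptors that passed.

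**Figure D2:**
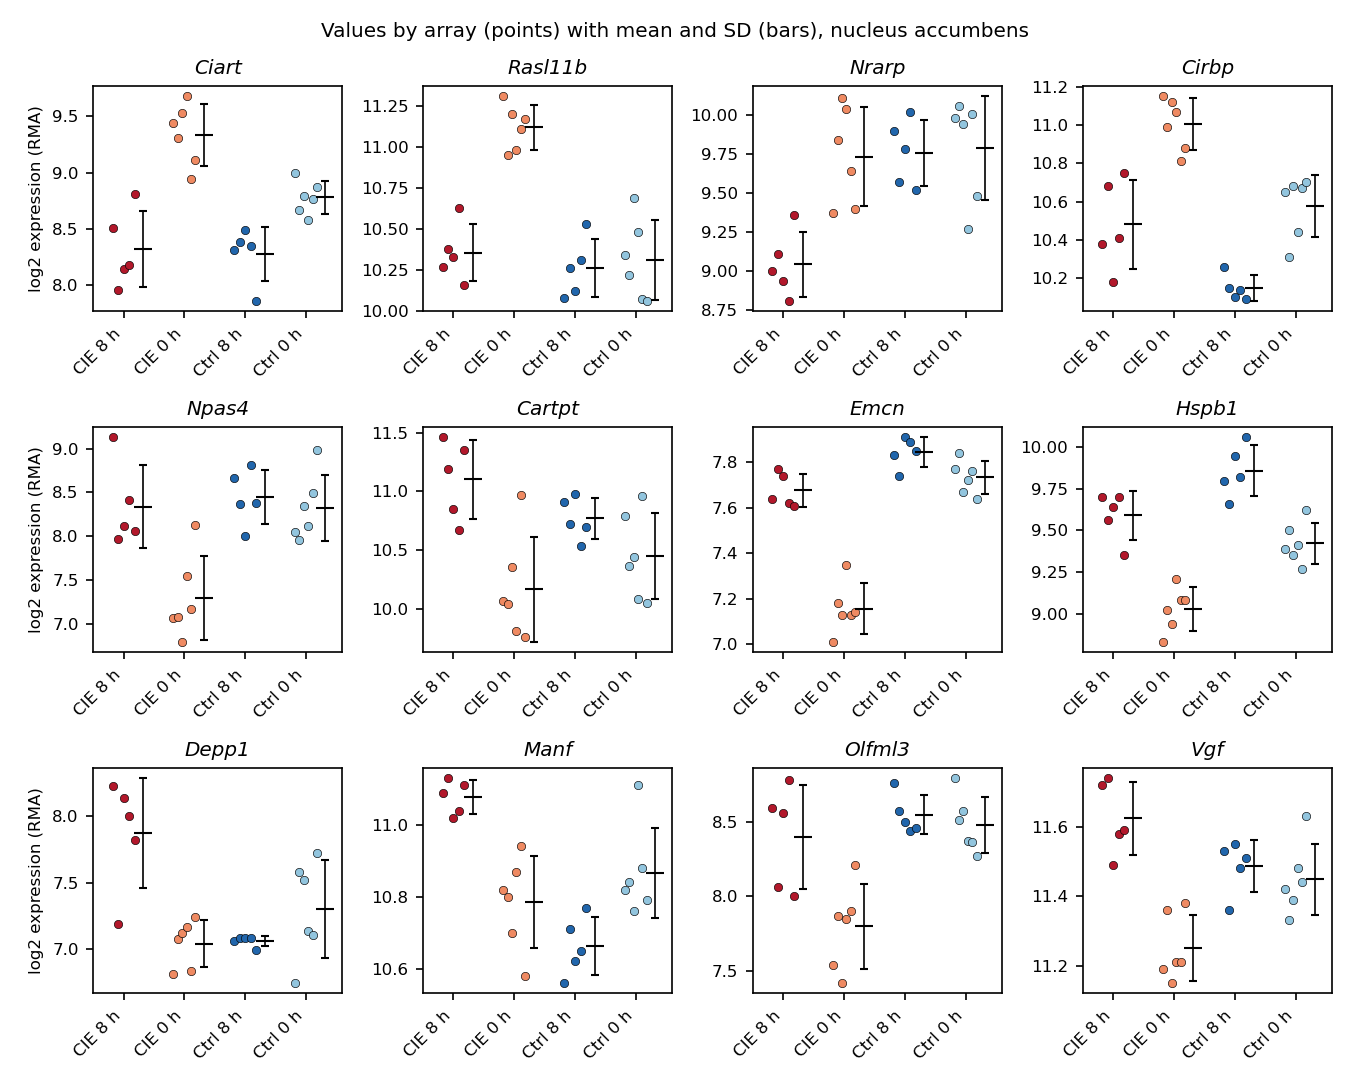
Log2 expression (y axis) of 12 genes in each array of CIE 8 h, CIE 0 h, Ctrl 8 h and Ctrl 0 h (x axis), with points for arrays and bars for the mean and SD. Ciart, Rasl11b, Nrarp and Cirbp are lower in CIE 8 h than in CIE 0 h without overlap, Npas4, Cartpt, Depp1 and Olfml3 are higher with overlap, and Emcn, Hspb1, Manf and Vgf are higher without overlap.

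Most endoplasmic reticulum (ER) chaperones had small positive changes. Manf, a secreted protein induced by ER stress, had 11.09, 11.13, 11.02, 11.04 and 11.11 in CIE 8 h, against 10.58, 10.81 and 10.94 (lowest, median, highest) in CIE 0 h. The groups did not overlap. Manf rose by 0.29 (SE 0.057, adjusted p = 0.00256), 1.22-fold, while it changed by -0.20 (SE 0.057, adjusted p = 0.552) in Ctrl. Pdia4, a protein disulfide isomerase of the ER, rose by 0.41 (SE 0.0824, adjusted p = 0.00334), with 9.46 to 9.74 in CIE 8 h and 9.0 to 9.44 in CIE 0 h and a Ctrl change of -0.0565. Of 24 measured members, 2 rose, 0 fell and 22 did not pass, and 22 changes were positive. At an unadjusted p under 0.05, 14 were higher and 0 lower, beside 8.24% and 7.15% of all genes. The median was 0.14 in CIE and 0.0021 in Ctrl, and it was positive within each of the 5 hybridization sets that hold both times, from 0.0972 to 0.22. Creld2 (0.35, adjusted p = 0.022), Sdf2l1 (0.33, adjusted p = 0.0268) and Hsp90b1 (0.21, adjusted p = 0.0161) did not pass, nor did Hspa5, the master ER chaperone BiP, at 0.15 (adjusted p = 0.361). Without the 3 arrays at the low end of the first component 0 of the 24 passed by limma, with 12 higher at an unadjusted p under 0.05 and a median of 0.15.

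**Figure D3:**
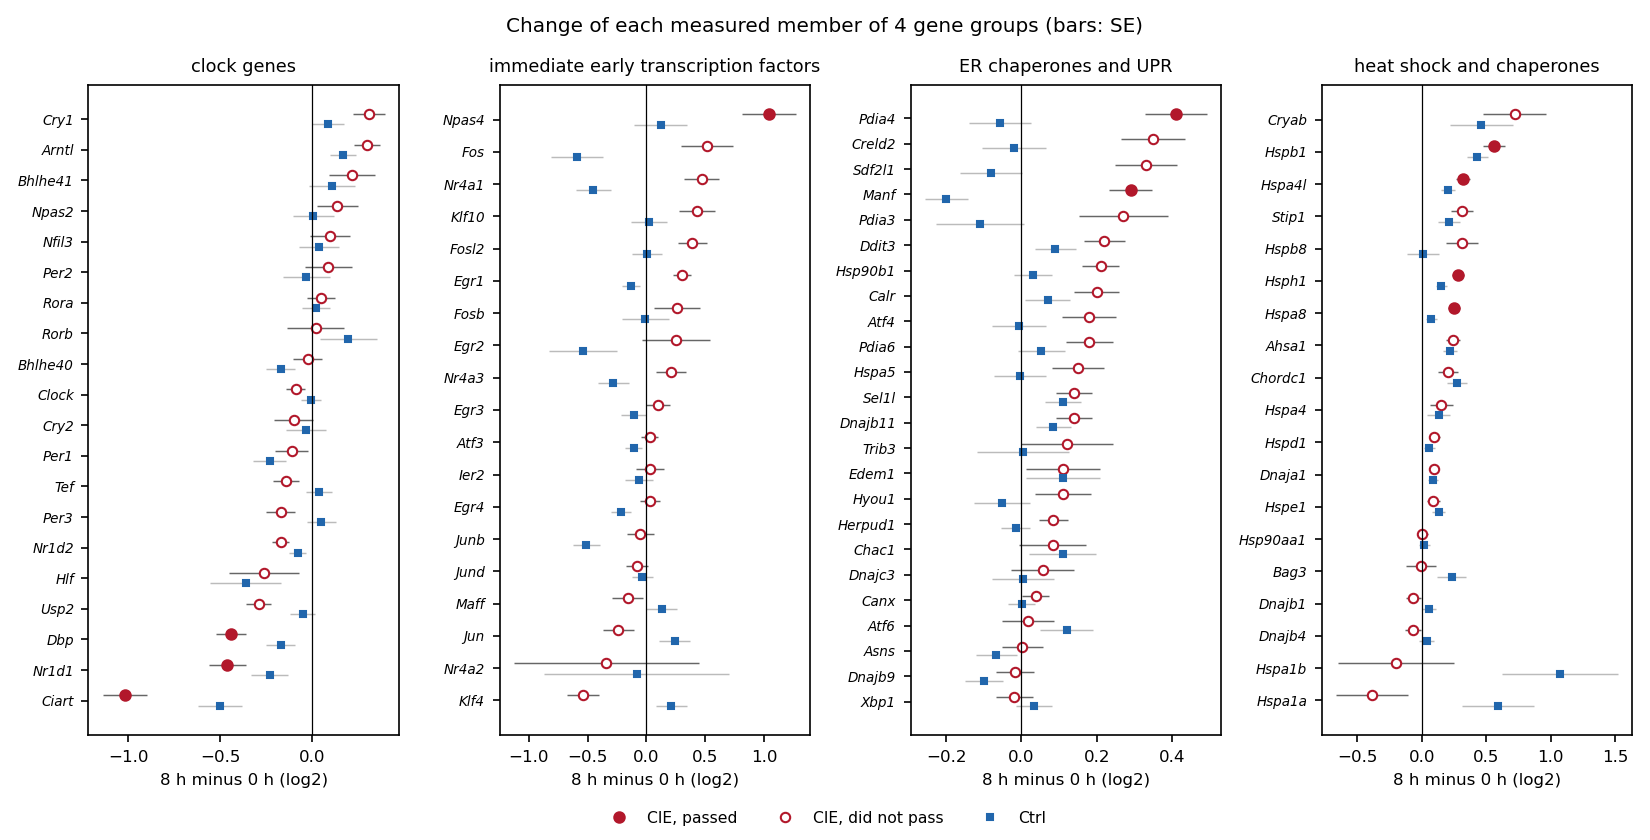
Change from 0 h to 8 h (x axis, log2, bars are SE) of each measured member (y axis) of 4 gene groups in CIE (circles, filled where passed) and in Ctrl (squares). All 19 chaperone squares lie to the right of 0, while for the ER genes the circles lie there for 22 of 24 members and the squares have a median of 0.0021.

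Markers of blood vessels and of microglia, the resident immune cells of the brain, had mostly positive changes. Emcn (chromosome 3, 137341062 to 137431069), a sialomucin of the endothelial surface, is outside the marker lists and had the smallest adjusted p of the comparison. It read 7.64, 7.77, 7.74, 7.62 and 7.61 in CIE 8 h, against 7.01, 7.13 and 7.35 (lowest, median, highest) in CIE 0 h. Each group was tight and they did not overlap. Emcn rose by 0.52 (SE 0.0504, adjusted p = 2.97e-08), 1.43-fold, with 0.11 in Ctrl, whose arrays spanned 7.74 to 7.91 at 8 h and 7.64 to 7.84 at 0 h. Plvap, a protein of endothelial fenestrae that is also outside the lists and was named after its values were seen, fell by 0.37 (SE 0.0812, adjusted p = 0.00925, or 0.0218 in the set-blocked fit), with -0.18 in Ctrl. Of the 19 listed endothelial and pericyte markers, 1 rose, 0 fell and 18 did not pass, with 11 higher and 0 lower at an unadjusted p under 0.05 and medians of 0.21 in CIE and 0.0985 in Ctrl. The rise within the list was in Kcnj8 (0.39, SE 0.0862, adjusted p = 0.00912, or 0.0147 in the set-blocked fit), the pore subunit of a potassium channel of pericytes, with -0.0465 in Ctrl, and Cldn5, a tight junction protein of the blood-brain barrier, changed by 0.38 (adjusted p = 0.021). The list averaged 8.80 to 9.08 over the CIE 8 h arrays and 8.60 to 8.90 over the CIE 0 h arrays. Without the 3 arrays at the low end of the first component 0 of the 19 passed by limma and 9 were higher at an unadjusted p under 0.05, with Kcnj8 at an adjusted p of 0.0327.

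Of 13 homeostatic microglia markers, 1 rose, 0 fell and 12 did not pass, all 13 changes were positive, and 8 were higher at an unadjusted p under 0.05. The rise was in Olfml3, a secreted glycoprotein of microglia, with 8.59, 8.06, 8.56, 8.78 and 8.0 in CIE 8 h, against 7.42, 7.86 and 8.21 in CIE 0 h. CIE 8 h replicates 15 and 51 lay within the 0 h range and the other 3 above it. Olfml3 rose by 0.60 (SE 0.124, adjusted p = 0.00443, or 0.012 in the set-blocked fit), with 0.0672 in Ctrl. P2ry13 changed by 0.50 (adjusted p = 0.0138) and Fcrls by 0.45 (adjusted p = 0.0258), and P2ry12, the receptor that guides microglial processes, by 0.33 (adjusted p = 0.0608). The list's median was 0.30 in CIE and 0.0606 in Ctrl. It averaged 8.86 to 9.34 in CIE 8 h and 8.64 to 9.02 in CIE 0 h, below the Ctrl arrays (9.11 to 9.27 at 8 h and 9.10 to 9.32 at 0 h) in each CIE 0 h array. The within-set medians ran from -0.0954 to 0.64 and were positive in 3 of 5 sets, and without the 3 arrays at the low end of the first component 2 of the 13 passed and the median was 0.39. Outside microglia, changes were also positive in 16 of 16 myelin, 16 of 18 astrocyte and 21 of 23 medium spiny neuron markers. Of 11 cortical pyramidal markers, 2 changes were positive and 9 negative. In bulk tissue, fewer cells of a type and less RNA per cell cannot be told apart.

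Other myeloid and complement genes gave 0 passing of 15 by limma, 9 higher at an unadjusted p under 0.05 and a median of 0.26 in CIE and -0.0229 in Ctrl. Outside the lists, Pglyrp1, a secreted protein that binds bacterial peptidoglycan, had 6.36, 6.17, 6.63, 6.62 and 6.33 in CIE 8 h against 5.62, 5.77 and 6.20 in CIE 0 h. Its groups overlapped through CIE 0 h replicate 17 alone. Pglyrp1 rose by 0.62 (SE 0.0892, adjusted p = 4.3e-05) and Clec5a, a myeloid lectin receptor, by 0.53 (SE 0.105, adjusted p = 0.00269, or 0.0102 in the set-blocked fit), with 0.0192 and 0.15 in Ctrl. Both lay below the array medians, Clec5a with means of 5.43 in CIE 8 h and 4.9 in CIE 0 h. Cebpb, a transcription factor of inflammatory and metabolic genes, fell by 0.37 (SE 0.0758, adjusted p = 0.00441, or 0.0113 in the set-blocked fit), the 1 of 22 NF-kB, cytokine and Toll-like receptor genes that passed. All 10 MHC class I genes had positive changes and 0 passed by limma, with 0 at an unadjusted p under 0.05, a median of 0.38 and within-set medians from -0.74 to 1.55. Interferon-stimulated genes were alike, with a median of 0.32, 0 of 18 passing, 3 higher at an unadjusted p under 0.05 and within-set medians from -0.88 to 1.09. Without the same 3 arrays, 13 of the 18 interferon-stimulated genes (median 0.60) and 5 of the 10 MHC class I genes (median 0.55) were higher at an unadjusted p under 0.05, with 0 passing by limma. CIE 0 h replicates 67 and 72 had the highest list means of their group, 8.11 and 8.2 for interferon and 9.85 and 9.97 for MHC class I. Leaving them out, which was decided after the data were seen, raises both changes by itself, so these counts are a description with no test.

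**Figure D4:**
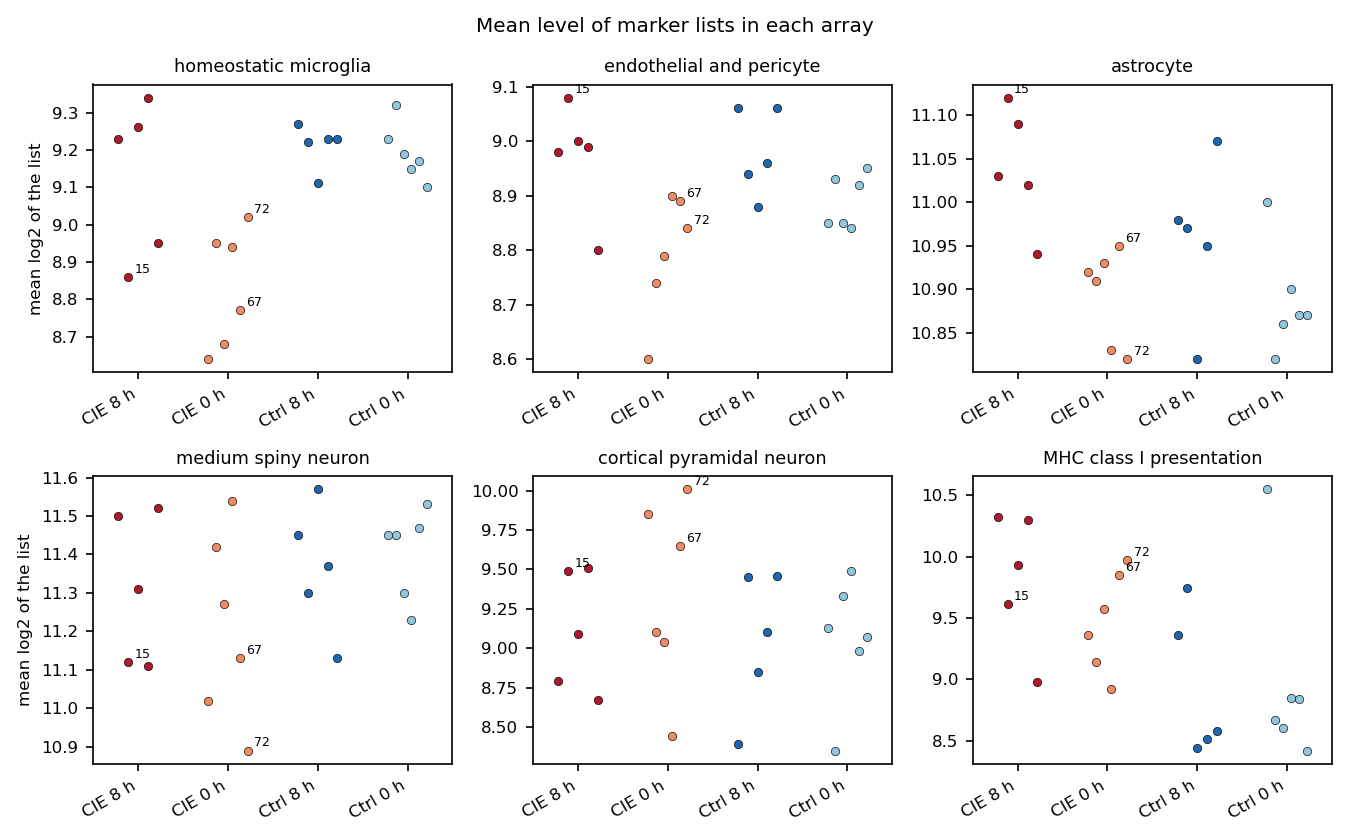
Mean log2 level of 6 marker lists (y axis) in each array of CIE 8 h, CIE 0 h, Ctrl 8 h and Ctrl 0 h (x axis), with replicates 15, 67 and 72 of CIE numbered. The microglia means of CIE 0 h lie between 8.64 and 9.02, below all Ctrl arrays, and the cortical pyramidal neuron means spread from 8.44 to 10.01 in CIE 0 h with no separation of the times.

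Rasl11b, Ccne2 and Tcf19, which are in none of the lists, were among the large falls. Rasl11b, a small GTPase of the Ras-like family, had 10.27, 10.38, 10.33, 10.63 and 10.16 in CIE 8 h, against 10.95, 11.14 and 11.31 (lowest, median, highest) in CIE 0 h. The CIE 8 h arrays lay among the Ctrl arrays of both times (10.06 to 10.69), and the CIE 0 h arrays above all of them. Rasl11b fell by 0.77 (SE 0.112, adjusted p = 5.37e-05), 0.588-fold, with -0.0501 in Ctrl, and the difference was -0.72 (SE 0.158, adjusted p = 0.104). Ccne2, the S-phase cyclin E2, had 7.01, 7.13, 7.22, 7.09 and 7.52 in CIE 8 h, against 7.83, 7.98 and 8.18 in CIE 0 h, with no overlap. It fell by 0.81 (SE 0.136, adjusted p = 0.000396), 0.569-fold, with -0.15 in Ctrl. Tcf19, a nuclear factor linked to the start of S phase, fell by 0.62 (SE 0.134, adjusted p = 0.00722, or 0.0194 in the set-blocked fit), and without CIE 0 h replicate 72, the highest array at 7.73, the change was -0.48 (adjusted p = 0.0228).

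Map3k6, a stress-activated protein kinase gene, was the 1 of 24 glucocorticoid-responsive genes that passed. It had 6.56, 6.75, 6.66, 6.61 and 6.94 in CIE 8 h, against 7.2, 7.26 and 7.45 in CIE 0 h, with no overlap, and fell by 0.60 (SE 0.0842, adjusted p = 3.77e-05), with -0.13 in Ctrl. The list's median change was -0.12 in CIE and -0.0498 in Ctrl, with 1 higher and 5 lower at an unadjusted p under 0.05. When CIE 8 h replicate 15 and CIE 0 h replicates 67 and 72 were left out, 3 of the 24 passed as lower, 12 were lower at an unadjusted p under 0.05 and the median was -0.26. Fkbp5, which restrains the glucocorticoid receptor, changed by -0.19 (adjusted p = 0.495), Plin4 by 0.30 (adjusted p = 0.809) and Cdkn1a, the cell cycle inhibitor p21, by -0.67 (SE 0.192, adjusted p = 0.0628). In CIE 0 h, Cdkn1a read 10.53, 10.55 and 10.89 in replicates 5, 17 and 26. Replicates 43, 67 and 72 read 9.55, 9.33 and 9.13, inside the CIE 8 h range of 8.98 to 9.67. Cyp11a1, which makes pregnenolone from cholesterol in the first step of steroid synthesis, is in none of the lists and fell by 0.74 (SE 0.146, adjusted p = 0.00264, or 0.0103 in the set-blocked fit), with 6.31 to 6.88 in CIE 8 h and 6.9 to 7.67 in CIE 0 h, and changed by 0.0175 in Ctrl.

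Depp1, a target of FoxO transcription factors known from vessels and fasting, had 8.23, 7.19, 8.14, 8.0 and 7.82 in CIE 8 h, against 6.81, 7.09 and 7.24 in CIE 0 h. CIE 8 h replicate 15 lay within the 0 h range and the other 4 well above it. Depp1 rose by 0.84 (SE 0.144, adjusted p = 0.000597), 1.78-fold, with -0.24 in Ctrl, and a further probeset rose as well (0.49, adjusted p = 0.00269). The rest of its list leaned the other way. Of 22 FoxO, insulin and energy-sensing genes, 1 rose, 1 fell and 20 did not pass, with 2 higher and 9 lower at an unadjusted p under 0.05 and medians of -0.10 in CIE and 0.0184 in Ctrl. The fall was in Prkaa2 (-0.27, SE 0.0575, adjusted p = 0.00676, or 0.0177 in the set-blocked fit), the alpha 2 catalytic subunit of AMP-activated kinase. Prkab2, a beta subunit, changed by -0.26 (adjusted p = 0.0276), Sesn1 by -0.24 (adjusted p = 0.0248) and Foxo3 by -0.24 (adjusted p = 0.164). Arrdc4, an arrestin-domain protein that restrains glucose uptake, fell by 0.53 (SE 0.101, adjusted p = 0.00186). Of 19 cholesterol synthesis and uptake genes, 0 passed by limma, 5 were lower at an unadjusted p under 0.05 and the medians were -0.12 in CIE and -0.10 in Ctrl.

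Nrarp, a feedback inhibitor of Notch signalling, had 9.0, 9.11, 8.94, 8.81 and 9.36 in CIE 8 h, against 9.37, 9.74 and 10.11 (lowest, median, highest) in CIE 0 h. The groups met without overlapping, and the Ctrl arrays spanned 9.52 to 10.02 at 8 h and 9.27 to 10.06 at 0 h, so that 4 of the 5 CIE 8 h arrays lay below all Ctrl arrays. Nrarp fell by 0.69 (SE 0.124, adjusted p = 0.00108), 0.621-fold, with -0.0312 in Ctrl. It was the 1 of 22 Notch pathway genes that passed. Hes5, a repressor that Notch induces, changed by -0.42 (SE 0.134, adjusted p = 0.11), with CIE means of 7.39 at 8 h and 7.80 at 0 h and Ctrl means of 8.79 and 8.80. The list's median was -0.0622 in CIE and 0.00038 in Ctrl.

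The other genes among the largest rises belong to none of the lists. Pdzph1, a protein with a PDZ domain, had 8.17, 7.84, 7.8, 8.15 and 7.6 in CIE 8 h, against 6.74, 7.01 and 7.39 in CIE 0 h, with no overlap, and rose by 0.88 (SE 0.137, adjusted p = 0.000161), with 0.17 in Ctrl. Nat8f5, of the N-acetyltransferase 8 family, rose by 0.77 (SE 0.124, adjusted p = 0.000231). Aox1, aldehyde oxidase, had 9.83, 9.78, 9.91, 9.59 and 9.75 in CIE 8 h, against 8.74, 9.11 and 9.46 in CIE 0 h. It did not overlap either, rose by 0.65 (SE 0.129, adjusted p = 0.0028), and changed by -0.10 in Ctrl. Fmo1, a flavin-containing monooxygenase of xenobiotics, rose by 0.63 (adjusted p = 0.00245), the zinc importer gene Slc39a2 by 0.57 (adjusted p = 0.00816), Dleu2, a noncoding RNA that hosts miR-15a and miR-16-1, by 0.54 (adjusted p = 0.000664), and Cep41, a protein of centrioles and cilia, by 0.51 (adjusted p = 0.00842). The other large falls were Gm4926 (-0.86, adjusted p = 0.00197), Cym (-0.68, adjusted p = 0.00235), Klhl40 (-0.62, adjusted p = 0.00401), Cstad (-0.59, adjusted p = 0.00421), 2810049E08Rik (-0.53, adjusted p = 0.00128) and Lrrc20 (-0.52, adjusted p = 0.000124). In Ctrl these 6 changed by between -0.37 (Cstad) and -0.00507 (Lrrc20). Gm4926 and Cym lay below the array medians, with CIE means of 5.56 and 4.89 at 8 h and 6.42 and 5.57 at 0 h.

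RNA splicing genes had mostly small positive changes. Of 40 measured, 2 rose, 0 fell and 38 did not pass, with 16 higher and 0 lower at an unadjusted p under 0.05 and medians of 0.0731 in CIE and 0.0178 in Ctrl. Hnrnpc and Hnrnpm, which encode proteins that package nascent RNA, rose. Hnrnpc changed by 0.23 (SE 0.04, adjusted p = 0.000518), with 0.18 in Ctrl, and Hnrnpm by 0.29 (SE 0.0633, adjusted p = 0.00759), with 0.15 in Ctrl. Tra2a, a splicing activator, changed by 0.34 (adjusted p = 0.0229), and Clk4 and Clk1, kinases of SR proteins, by 0.26 (adjusted p = 0.035) and 0.20 (adjusted p = 0.0454). Of the probesets that are not a gene's brightest, 2 of the splicing factor gene Sfpq rose (0.81, adjusted p = 4.38e-06, and 0.49), while its brightest changed by -0.099. Firre, a nuclear noncoding RNA, changed by 0.0442 (adjusted p = 0.904) at its brightest probeset, while 3 others passed in the same direction.

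In all, 14 of 42 lists, with 748 measured genes, held a member that passed. The 30 oxidative phosphorylation genes gave 0 at an unadjusted p under 0.05 and a median of 0.0011. The lists of glutamate receptors and scaffolds, GABA and glycine receptors, chromatin modifiers, cytosolic ribosomal proteins, antioxidant genes and ethanol metabolism each held 0 members that passed by limma and at most 4 in either direction at an unadjusted p under 0.05. Of 15 p53 targets, 0 passed by limma, 0 were higher and 5 lower at an unadjusted p under 0.05, and the median of -0.034 was negative in each of the 5 sets. Of 16 calcium, sodium and HCN channel genes, 0 passed by limma and 5 were lower at an unadjusted p under 0.05, with a median of -0.0782. Of 18 astrocyte markers 0 passed by limma and 7 were higher at an unadjusted p under 0.05, with a median of 0.13 that was positive in each of the 5 sets. Myelin markers had a median of 0.37 in CIE and 0.14 in Ctrl with 0 of 16 passing by limma and 3 higher at an unadjusted p under 0.05, and within-set medians from -0.43 to 1.07. Of 23 medium spiny neuron markers and 11 cortical pyramidal markers 0 passed by limma, with 2 in each list at an unadjusted p under 0.05 and medians of 0.12 and -0.18.

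**Figure D5:**
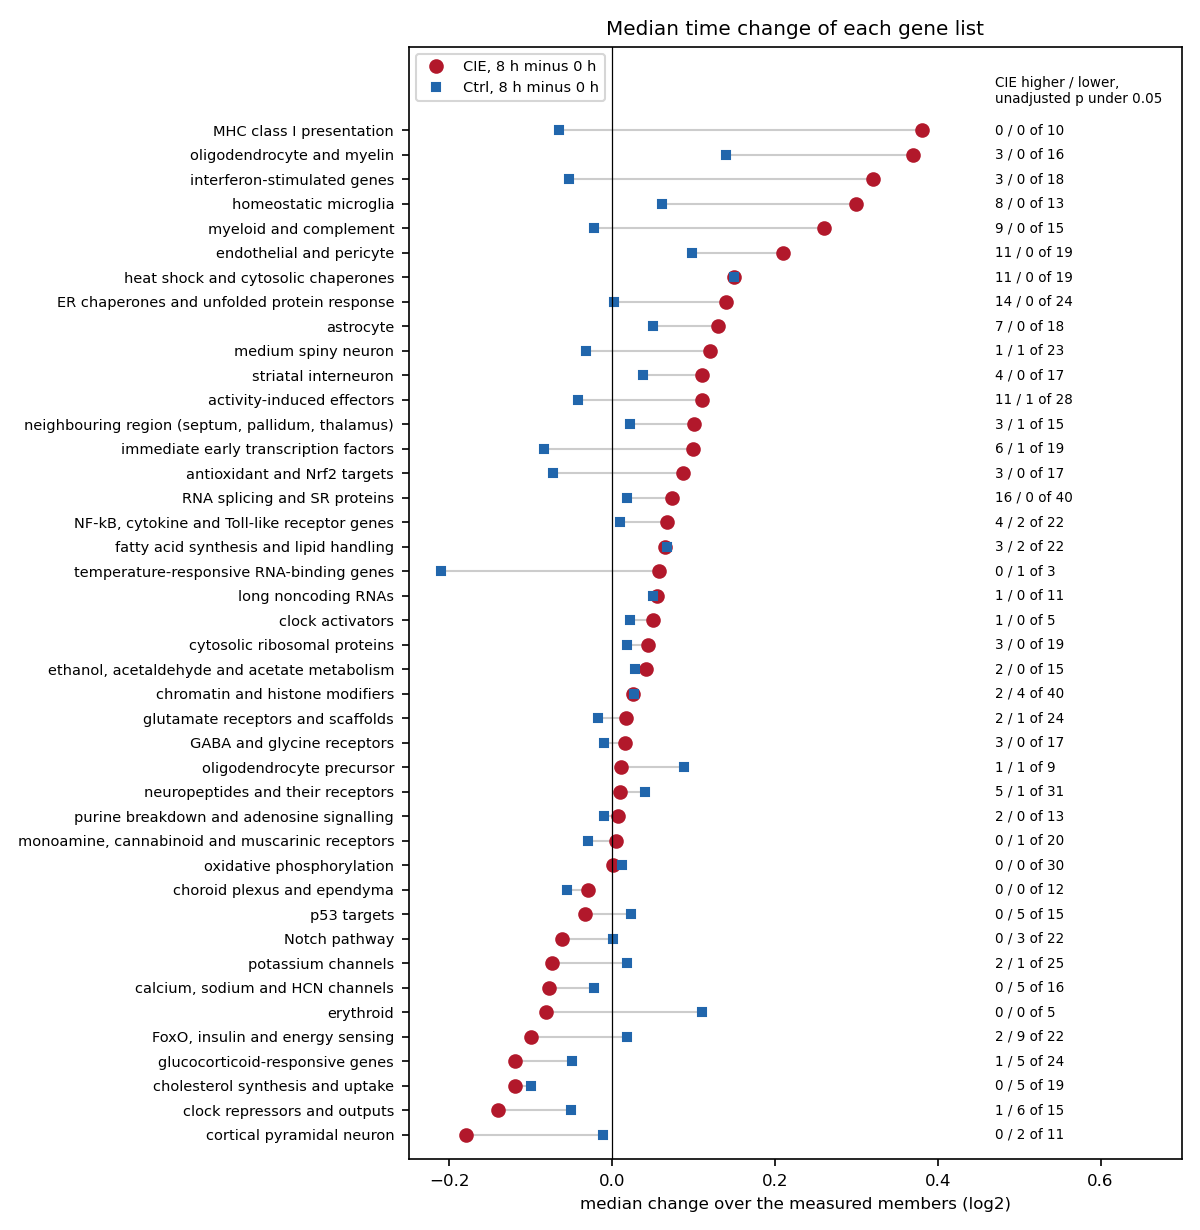
Median change from 0 h to 8 h over the measured members (x axis, log2) of 42 gene lists (y axis), in CIE (circles) and in Ctrl (squares), with the counts of members higher and lower in CIE at an unadjusted p under 0.05 printed at the right. The MHC class I list has the highest CIE median (0.38) with 0 such members of 10, and the ER list has 14 of 24 with a median of 0.14.

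The test of whether the time change differed between CIE and Ctrl gave 5 genes of 18193 (0.0275%) at an adjusted p of 0.05 or less at their brightest probeset, and 0 at 0.01. The differences were 0.49 for Manf (adjusted p = 0.0131), 0.41 for Emcn (adjusted p = 0.0238), -0.33 for Rpain (adjusted p = 0.0415), 1.07 for Depp1 (adjusted p = 0.0427) and -0.36 for Rab33a (adjusted p = 0.0448). Rab33a, a small GTPase of vesicle transport in neurons, had 10.52, 10.56, 10.45, 10.59 and 10.64 in CIE 8 h, against 10.8, 10.91 and 11.01 in CIE 0 h. It fell by 0.35 (SE 0.0486, adjusted p = 3.41e-05) without overlap and changed by 0.00559 in Ctrl. Rpain, an importer of replication protein A into the nucleus, changed by -0.17 (adjusted p = 0.0326) in CIE and 0.16 in Ctrl. With the sets as a block the adjusted p was 0.0408 for Manf, 0.0408 for Depp1, 0.0943 for Emcn, and 0.198 for Rab33a and Rpain.

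The later arrays, which entered the choice of probesets only through the shared spread, mostly lay nearer to CIE 8 h than to CIE 0 h. For the probesets that rose, the CIE 72 h mean was nearer to the 8 h mean in 134 of 169 (79.3%) and the CIE 7 d mean in 110 (65.1%). For those that fell the counts were 97 of 116 (83.6%) and 87 (75.0%). Over all probesets the shares were 57.9% at 72 h and 49.9% at 7 d. The Ctrl 72 h mean was nearer to CIE 8 h in 116 of the 169 (68.6%) and 101 of the 116 (87.1%), beside 54.7% of all. The probesets were chosen on their 0 h and 8 h values, so these shares are a description with no test. Emcn, for example, averaged 7.16 ± 0.11, 7.68 ± 0.0715, 7.78 ± 0.0686 and 7.76 ± 0.0985 at 0 h, 8 h, 72 h and 7 d in CIE (SD, n = 6, 5, 5 and 6). In the same order Rasl11b averaged 11.12, 10.35, 10.4 and 10.51, so that the lower level lasted. Nrarp averaged 9.73, 9.04, 10.24 and 10.28, lowest at 8 h. Depp1 averaged 7.04, 7.88, 7.22 and 7.25, highest at 8 h.

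Of the 44 named genes that passed, 29 had groups that did not overlap and 38 had the same sign in each of the 5 sets. The 44 were chosen on the same values, so these counts are a description with no test. A total of 31 passed with the sets as a block, where the 13 others had adjusted p of up to 0.0226 (Cartpt, Cebpb, Cep41, Clec5a, Cyp11a1, Kcnj8, Klhl40, Npas4, Nr1d1, Olfml3, Prkaa2, Slc39a2 and Tcf19). With each of the 11 arrays left out in turn, 23 passed in every fit, among them Ciart, Dbp, Emcn, Rasl11b, Ccne2, Nrarp, Map3k6, Cirbp, Vgf, Depp1, Pdzph1, Pglyrp1 and the 4 heat shock genes. The least stable were Hnrnpm (1 of 11), Cartpt (2), Kcnj8, Cep41, Nr1d1 and Slc39a2 (3 each), and Npas4, Prkaa2 and Tcf19 (4 each), with adjusted p of up to 0.06 for Npas4. The most calls, 19 of 44, were lost without CIE 8 h replicate 23 or CIE 0 h replicate 5, then 17 without CIE 8 h replicate 1 and 16 without CIE 0 h replicate 26. Without the 3 arrays at the low end of the first component 30 of the 44 passed, with Tcf19 at an adjusted p of 0.135, Prkaa2 at 0.0913 and Manf at 0.0176 among those that did not. With a marker score, the cortical minus the medium spiny neuron mean, as a covariate 39 passed, and Npas4 and Cartpt did not (adjusted p = 0.0105 and adjusted p = 0.012).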

How the data were processed

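RNA from the NAC of single mice was hybridized to Affymetrix GeneChip mouse genome arrays. The authors deposited log2 expression values per probeset, made with RMA within hybridization batches, quantile normalized together and adjusted with ComBat. An RMA version was not given in the sources used here. When sorted, the values of the arrays lay within 0.128 of each other. Values were used as deposited. Of 45037 probesets, 34945 had 1 symbol in the platform annotation (18193 genes, each read at its brightest probeset), 932 several and 9160 none, and 34741 of the first were found in RefSeq GRCm38.p6, which gave positions.

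Groups came from the labels. limma 3.58.1 in R 4.3.3 was fitted to all 45 arrays with 8 group means and no covariate, the authors' tool, with Benjamini-Hochberg adjustment over all probesets and a threshold of 0.01. The same fit gave the time change in Ctrl and the difference of the 2 time changes. Arrays have no count depth, so their number limits the precision. The labels give no batch. Arrays sharing at least 5 exactly equal values (tolerance 2e-08) were taken as 1 hybridization set, which gave 6 sets of 6 to 8 arrays with at most 1 array of a group in each. Ctrl 0 h replicate 20 was in none, and 5 sets held both CIE times. These sets are inferred and may differ from the authors' batches.

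The 42 lists, the tests and the genes followed were chosen with earlier results of these data known. Named were the 15 largest rises and falls among genes that passed, up to 4 passing members of each list, the 5 genes with the smallest p for the difference, and a set of 40 genes followed whatever their values, 38 of them measured. Homer1, Sfpq, Plvap and members of lists that did not pass were added after their values were seen. Alternatives were a block for the sets, another normalization, centring, trend and robust settings, fewer arrays, array weights, a filter on dim probesets and leaving out arrays. Leaving out 3 arrays together and the marker score were added after seeing the data.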

Additional observations from a re-analysis of the deposited data

Results flagged for a closer look

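In 4 of 154 groups of arrays tested over the named genes, a single array lay far from the rest by Dixon's ratio of the gap to the range, fewer than the about 1 in 20 that chance gives. Pdia4 in CIE 8 h replicate 51 (ratio 0.854) read 9.46, below the other 4 arrays at 9.7 to 9.74. Per3 in CIE 0 h replicate 72 (0.788) read 9.62, below 10.03 to 10.14 in the other 5. Pglyrp1 in CIE 0 h replicate 17 (0.719) read 6.2, above 5.62 to 5.78, and Tcf19 in CIE 0 h replicate 72 (0.681) read 7.73, above 6.71 to 7.04. CIE 0 h replicate 72 was also the array with the lowest medium spiny neuron mean (10.89) and the highest cortical mean (10.01), whose part in these values was not tested.

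The time changes of 5 genes differed between CIE and Ctrl at an adjusted p of 0.05 or less by limma: Depp1 (difference 1.07), Manf (0.49), Emcn (0.41), Rpain (-0.33) and Rab33a (-0.36). For Manf and Rpain the 2 groups changed in opposite directions, by 0.29 in CIE and -0.20 in Ctrl for Manf, and by -0.17 in CIE and 0.16 in Ctrl for Rpain.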

How the results depend on the processing

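The count of 285 probesets in CIE was 166 with the sets as a block and 782 at an adjusted p of 0.05 or less. It was 81 with only the 0 h and 8 h arrays and 0 by limma with only the 11 arrays compared. With only the 18193 brightest probesets it was 167, beside 140 of these in the main fit. Leaving out single arrays gave counts of 127 to 334. It moved by over 1.5 times without CIE 0 h replicate 5 (127), CIE 8 h replicate 1 (138), CIE 8 h replicate 23 (138) or CIE 0 h replicate 26 (179). It was 278 to 392 under the other normalization, centring, trend and robust settings, array weights and the filter on dim probesets, 234 without the 3 arrays named above and 313 with the marker score. The filter on dim probesets left 27022 to test. All 285 kept their sign in each setting in which they were tested. The settings refit the arrays on which the 285 were chosen, so this is a description with no test.

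The count of 0 in Ctrl became 1 with trend and robust settings, 1 at an adjusted p of 0.05 or less, and 0 to 1 with 1 array left out (1 without Ctrl 0 h replicate 20). The count of 0 for the difference became 1 with trend and robust settings, 1 without dim probesets, 2 with only the brightest probesets, 2 without the 3 arrays, 7 at an adjusted p of 0.05 or less and 0 to 3 with 1 array left out (3 without CIE 0 h replicate 43, 2 without CIE 8 h replicate 15 or Ctrl 0 h replicate 20). For the difference, a fit to the arrays compared is the same as one to the 0 h and 8 h arrays. Pairing by replicate number was not possible, since each number belongs to 1 mouse and none is shared between groups. The inferred sets served as the block. Depth does not apply to arrays, and signal over background is not given.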
